A study of Mus musculus with 3 samples.

Results

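The CHD helicases are the chromodomain helicase DNA-binding proteins, and the values described here are those of the 7 rows named Chd1, Chd2, Chd3, Chd4, Chd5, Chd7 and Chd8 in a table of 24458 rows. Rows were chosen by gene symbol alone, and each symbol named 1 row. Of the 9 rows whose symbol is Chd and a number, Chd6 and Chd9 lie outside the chosen set and are given for comparison. The study examined RNA and chromatin accessibility in the mouse dentate gyrus upon neuronal activation. The 3 libraries used here form 1 group, labelled E24, of C57BL/6 mice 8 weeks old, and each was made from a single animal's microdissected dentate gyrus. The deposited table is named with the abbreviations WT and ECT, which no label spells out. The sample labels give no genotype, agent or stimulus for E24 and do not explain that label either, and no control group was analysed here, so no comparison between conditions was made.

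CHD proteins use the energy of ATP to slide, evict or space nucleosomes, and their paired chromodomains help them bind histone tails or DNA. They are grouped into Chd1 and Chd2, which act with transcription elongation and H3.3 deposition, Chd3, Chd4 and Chd5, the helicases of the NuRD deacetylase complex, and Chd6 to Chd9, which bind enhancers and promoters. Chd5 is known mainly from neurons, Chd7 from neural progenitors and CHARGE syndrome, and CHD8 and CHD2 as genes mutated in autism and epilepsy.

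In this table the value of a row in one library often has its like in a nearby row of another. For values of 0.3 RPKM or more, a value within about 10.52% stood within 5 rows in another library in 54.1% of look-ups, against 21.0% for 11 rows centred 50 rows away. Each value is accordingly given for its row, and no level is stated for the gene the row is named for. Which values of the CHD rows are out of place was not tested. The unit is RPKM, the reads of a gene divided by its length and by the mapped reads of the library. Replicate 1 summed to 384523 RPKM over all rows, replicate 2 to 369261 and replicate 3 to 350942, and the number of reads behind them is unknown. In bulk tissue, fewer cells of a type and less RNA per cell cannot be told apart. Of the rows named for granule neuron markers, 4 of 7 held 1 RPKM or more in every library, where 7917 of all 23934 symbols did. These were Calb1, Stxbp6, Ntng1 and Rasgrp1, and the Rasgrp1 row held 76.3, 60.9 and 29.2 RPKM. The Dsp row held 0.325, 40.1 and 38.9 RPKM. The Prox1 row held 1.58, 39.3 and 0 RPKM, and the C1ql2 row stayed at 0.698 RPKM or less in each library. For other cell types, 4 of 5 microglial and 4 of 5 CA pyramidal rows held 1 RPKM or more in every library. So did 2 of 5 interneuron, 2 of 5 oligodendrocyte, 1 of 5 astrocyte and 1 of 4 endothelial rows. These counts do not set granule neurons apart.

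The 7 rows fell into 3 that were level across the animals and 4 that were not. The rows named Chd3 and Chd8 held about equal, high values in every library, and the Chd1 row held a low value in every library. The Chd2, Chd4, Chd5 and Chd7 rows each had at least 1 library several-fold away from another. By mean the order was Chd4, Chd3, Chd8, Chd2, Chd5, Chd7 and Chd1. The ranges of neighbours in that order overlapped except for Chd8 and Chd2, where the lowest Chd8 value, 95.4 RPKM, lay above the highest Chd2 value, 48.5 RPKM.

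**Figure D1:**
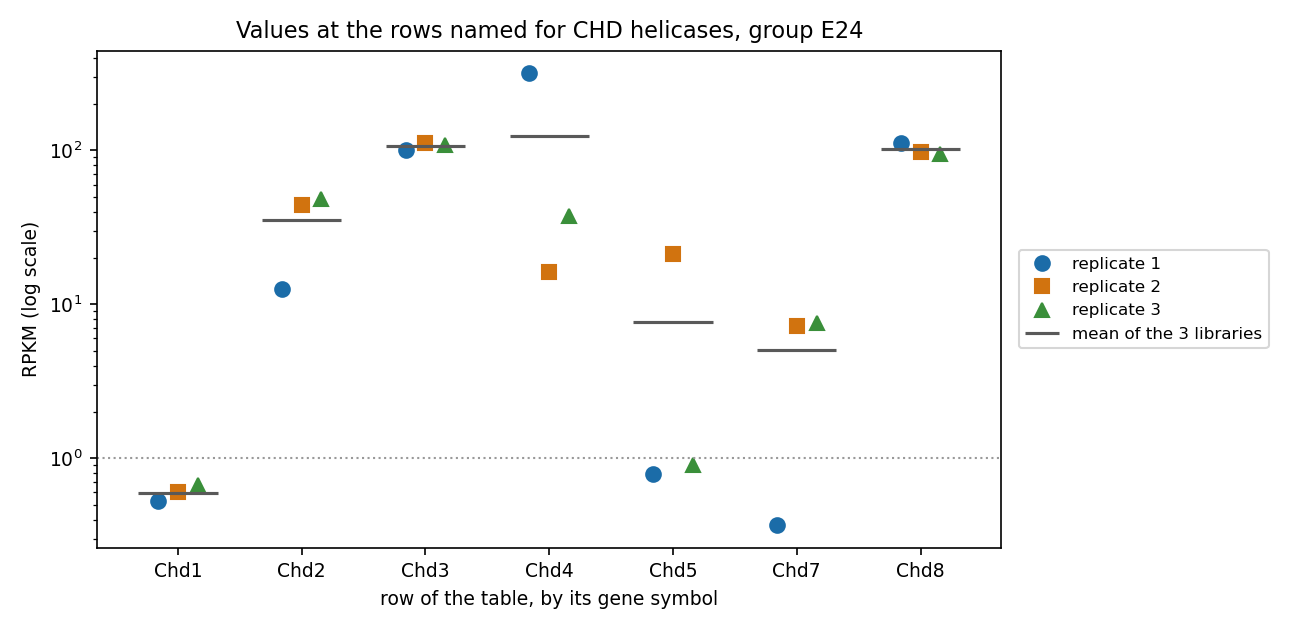
RPKM on a log scale at each row named for a CHD helicase. Points are the 3 E24 libraries, the bar is their mean and the dotted line marks 1 RPKM. The Chd3 and Chd8 points lie together near 107 and 102 RPKM, while the Chd4 points run from 16.1 to 316 RPKM.

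Chd1 reads trimethylated H3K4 and spaces nucleosomes behind RNA polymerase. Its row (chromosome 17, 15841930 to 15909576, all coordinates as the table gives them in mm9) held 0.525, 0.602 and 0.669 RPKM in replicates 1, 2 and 3. All 3 libraries were under 1 RPKM, with a mean of 0.599 ± 0.072 RPKM (SD, n = 3), and the highest was 1.27 times the lowest. Chd2, its closest relative, is on chromosome 7 from 80571537 to 80686632. Its row held 12.6, 44.2 and 48.5 RPKM, so that replicates 2 and 3 lay close together and replicate 1 was lower by 3.51-fold and 3.86-fold. The last part of the Chd2 locus overlaps that of 1810026B05Rik, the next row of the table, which held 46.2, 20.1 and 18.6 RPKM. Whether the counting used strand is not given in the sources used here, so reads of overlapping loci may be shared.

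Chd3 and Chd4 are the alternative motor subunits of NuRD, and Chd5 is their neuronal relative. The Chd3 row (chromosome 11, 69156774 to 69182928) held 99.9, 112.0 and 108.9 RPKM, a mean of 107 ± 6.25 (SD, n = 3), with a highest value 1.12 times the lowest. The Chd4 row (chromosome 6, 125046180 to 125080519) held 316, 16.1 and 37.5 RPKM. Replicate 1 was 19.6 times replicate 2 and 8.44 times replicate 3, and it alone set the mean of 123 RPKM above that of the other 6 rows. The microRNA locus Mir7045 lies inside the Chd4 locus. The Chd5 row (chromosome 4, 151712759 to 151764303) held 0.795, 21.3 and 0.905 RPKM. Here replicate 2 was the high library, at 26.8 times replicate 1.

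Chd7 and Chd8 belong to the third subfamily. The Chd7 row (chromosome 4, 8617552 to 8795596) held 0.367, 7.27 and 7.52 RPKM, with replicates 2 and 3 within 1.03-fold and replicate 1 lower by 19.8-fold and 20.5-fold. The Chd8 row (chromosome 14, 52817825 to 52857247) held 112.2, 98.2 and 95.4 RPKM, a mean of 102 ± 9.01 (SD, n = 3). Its libraries lay within 1.18-fold, with replicate 1 the highest. The 2 rows outside the set were of the uneven kind. The Chd6 row (chromosome 2, 160772713 to 160934792) held 3.99, 5.24 and 0.0849 RPKM, and the Chd9 row (chromosome 8, 93352733 to 93578407) held 8.41, 59.5 and 53.9 RPKM.

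The library that stood apart was not the same one at each row. Replicate 1 was the low one at Chd2 and Chd7 and the high one at Chd4, and replicate 2 was the high one at Chd5. Of the 7 rows, 4, 6 and 5 were at 1 RPKM or more in replicates 1, 2 and 3, where 50.2%, 49.3% and 49.5% of all rows were. The median of the 7 was 12.6 RPKM (the Chd2 row) in replicate 1, 21.3 RPKM (the Chd5 row) in replicate 2 and 37.5 RPKM (the Chd4 row) in replicate 3.

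Against a level of 1 RPKM, 3 of the 7 rows were higher by limma across all symbols (adjusted p under 0.05), where 18.9% of all 23934 symbols were. The Chd3 row lay above the level by 5.75 on the log2(RPKM + 1) scale (SE 0.13, limma adjusted p = 0.00141), and the Chd8 row by 5.68 (SE 0.13, limma adjusted p = 0.00141). Both calls were kept under every alternative run, including 5 RPKM as the level and leaving out any library. The Chd2 row lay above by 3.96 (SE 0.51, limma adjusted p = 0.0186), with limma adjusted p of 0.103 without replicate 2 and 0.0989 without replicate 3. Chd4, below Chd3 and Chd8 on this scale and highest by mean RPKM through replicate 1 alone, missed the threshold at 4.89 (SE 1.05, limma adjusted p = 0.0534). It passed with a pseudocount of 0.1 (limma adjusted p = 0.0354) and when symbols under a mean of 0.1 RPKM were left out (0.0335).

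The rows Chd5, Chd7 and Chd1 differed from the level by 1.08, 1.20 and -0.32 on that scale, with limma adjusted p of 0.425, 0.310 and 1. Without replicate 1 the Chd7 row passed, at 2.07 with a limma adjusted p of 0.0168. Without replicate 2 the Chd5 row turned to -0.11. The median level of the 7 rows was 4.96 on the log2(RPKM + 1) scale, against 1.59 over all rows. For a test of a level, a p over the threshold does not show that a row was at or under 1 RPKM.

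The spread of a row between libraries was measured as the SD of log2(RPKM + 1). It was 0.07 for Chd1, 0.08 for Chd3 and 0.12 for Chd8, then 1.04 for Chd2, 1.51 for Chd7, 2.07 for Chd5 and 2.17 for Chd4. No member lay between 0.12 and 1.04. The added 1 narrows differences at low values. As the highest library over the lowest, Chd1 stood at 1.27, above Chd8 at 1.18 and Chd3 at 1.12. The median of the 7, 1.04, stood beside 1.38 for the 15470 rows with a mean of 1 RPKM or more. These sets are not alike, since the 7 include the Chd1 row, with a low SD and a mean of 0.599 RPKM. Of the 6 members at that mean, 2 had all libraries within 1.5-fold (21.2% of such rows did) and 3 had libraries over 5-fold apart (61.4% of such rows did). Rows of both kinds are therefore common in this table, and so are rows between them. Of the 15470 rows, 11.6% had an SD below that of Chd8 and 40.4% below that of Chd2.

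Likeness was taken as a natural-log difference of at most 0.1, the 10.52% used above. At the own row, replicates 2 and 3 were alike for 4 of 7 members, Chd2, Chd3, Chd7 and Chd8, where 28.4% of the 16556 rows with a mean of 0.5 RPKM or more were alike. Replicates 1 and 3 were alike for Chd3 only (12.2% of rows), and replicates 1 and 2 for none (11.8% of rows). No member was alike in all 3 pairs, against 4.83% of rows. At a difference of up to 0.2, Chd3 and Chd8 were alike in all pairs.

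At some members the value of one library recurred near the row in the others. Within 5 rows of the Chd4 row, a value of 305 to 318 RPKM stood once in every library, at a different row each time. It was 316 RPKM at the Chd4 row in replicate 1, 318 RPKM at the row of the zinc finger gene Zfp384, 3 rows earlier, in replicate 2, and 305 RPKM at the Iqsec3 row, 2 rows earlier, in replicate 3. The 3 values lay within 1.04-fold. The 16.1 RPKM that replicate 2 held at the Chd4 row also recurred, as 16.3 RPKM at the Mir7045 row in replicate 1 and 16.1 RPKM at the Mrpl51 row in replicate 3. The Zfp384 row in replicate 3, at 15.6 RPKM, was like it as well. Which of these values belongs to Chd4 was not resolved.

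**Figure D2:**
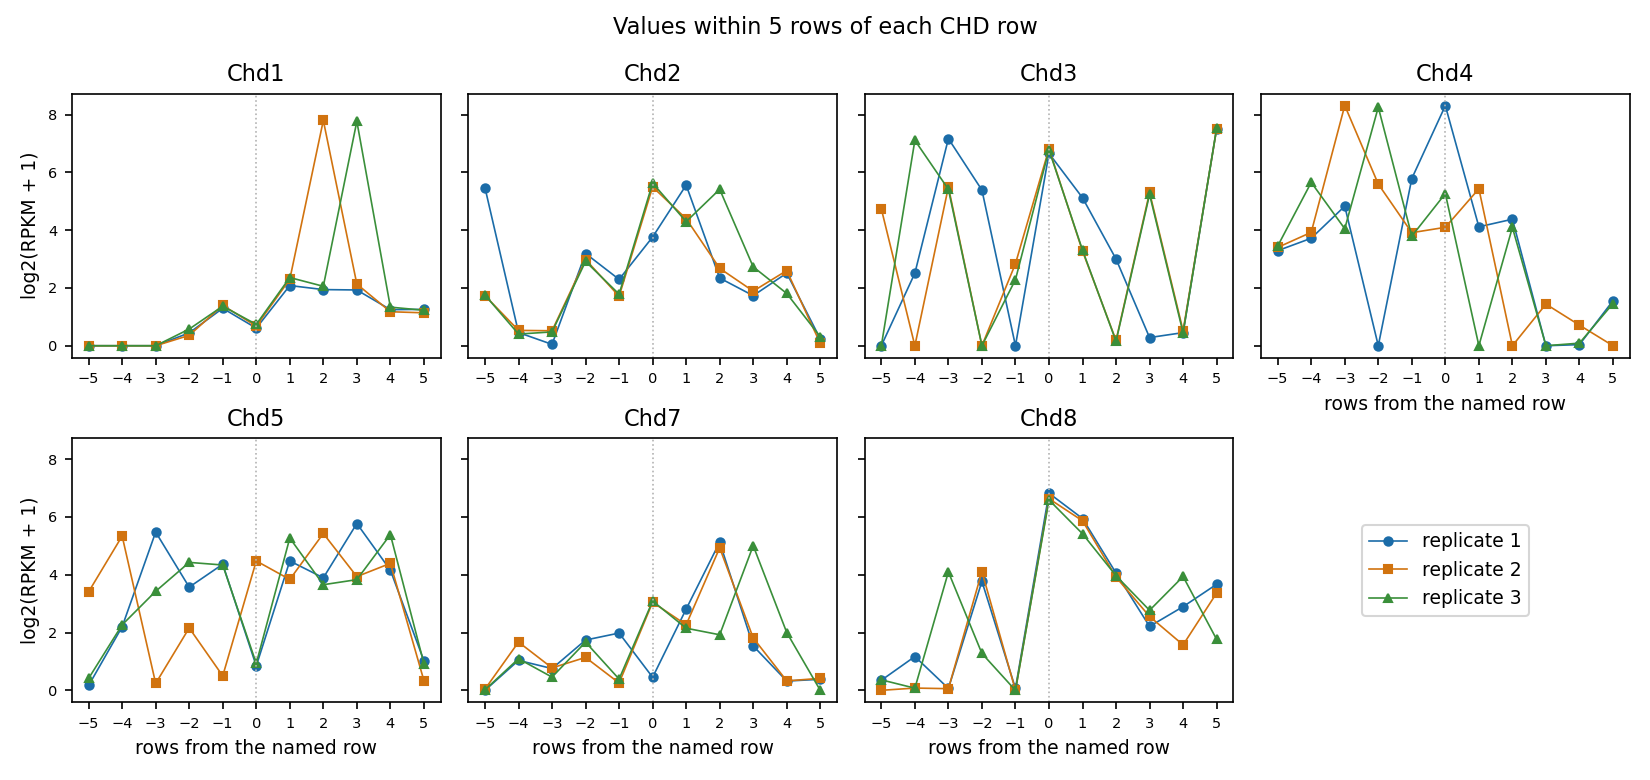
Levels as log2(RPKM + 1) at each row from 5 rows before to 5 rows after the CHD row (dotted line at 0), with 1 panel per member and 1 line per E24 library. Lines run together at Chd8 and its next 2 rows and around Chd1 except 2 and 3 rows after it, while the Chd4 panel shows a peak of 305 to 318 RPKM at 3 different rows.

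The high Chd5 value behaved in the same way. The 21.3 RPKM of replicate 2 at that row stood beside 21.3 RPKM in replicate 1 at the next row, B930041F14Rik, and 20.5 RPKM in replicate 3 at the Cdk11b row, 2 rows earlier. In replicate 1 the Mmp23 row, 1 row before Chd5, was also like it, at 19.6 RPKM. The low values of replicates 1 and 3 at the Chd5 row had no like value in replicate 2 within 5 rows. For Chd2, the 44.2 and 48.5 RPKM of replicates 2 and 3 had a like value in replicate 1 at the next row, 46.2 RPKM. That look-up too had more than 1 answer, since the 44.2 RPKM was also like 43.3 RPKM at the Ntrk3 row, 5 rows before, in replicate 1 and 41.7 RPKM at the Abhd2 row in replicate 3. The 12.6 RPKM of replicate 1 recurred in neither other library within 5 rows.

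Around Chd7, replicates 2 and 3 kept their 7.27 and 7.52 RPKM at the named row, and no value of replicate 1 within 5 rows was like them. The nearest was 6.02 RPKM at the next row, that of the cyclin gene Ccne2. The 0.367 RPKM of replicate 1 recurred in replicate 2 (0.333 RPKM, Rbm12b1 row) and in replicate 3 (0.373 RPKM, Fsbp row). A value of about 30 RPKM stood nearby in every library, 34.0 and 29.5 RPKM at the Ints8 row in replicates 1 and 2 and 31.2 RPKM at the Fam92a row in replicate 3.

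Around Chd1 the libraries held about equal values on most of the low rows above 0. Of 6 window rows with a mean of 1 RPKM or more, 4 had their libraries within 1.5-fold. Over the windows of all members, that of Chd1 included, 11 of 59 such rows did. Among all rows at that mean the share was 21.2%. The rows 3 to 5 places before Chd1, of vomeronasal receptor genes, were listed at 0 throughout. They cannot show step, because displaced values of 0 would look the same. The Zfp51, Zfp948 and Gm10509 rows all held 1.20 to 1.64 RPKM, so values exchanged among them would look level too. The highest value within 10 rows stood at a different row in each library. In replicate 2 it was 222 RPKM at the row of the phosphatase scaffold Ppp2r1a, 2 rows after Chd1. In replicate 3 it was 217 RPKM at the Zfp160 row, 3 rows after. In replicate 1 it was 230.0 RPKM at the Zfp52 row, 7 rows after. Whether these are the same value displaced was not tested. The highest value within 5 rows of Chd1 differed 68.4-fold between libraries, and within 10 rows 1.06-fold. Widening to 10 rows raised that difference at Chd4 (1.04-fold to 2.10-fold), Chd5 (1.31-fold to 2.93-fold) and Chd8 (1.18-fold to 1.42-fold). It was unchanged at Chd2, Chd3 and Chd7.

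The windows of the level, high rows differed from each other. At Chd8 the named row was the highest of its 11 rows in each library, and the next 2 rows were level too. The Snord8 row, a small nucleolar RNA locus inside the Chd8 locus, held 60.7, 57.4 and 41.8 RPKM, and the Mrpl52 row 15.6, 14.1 and 14.6 RPKM. At Chd3 the named row was level while the rows on either side were not. The Cd68 row after it held 33.8, 8.68 and 8.92 RPKM, and the Atp1b2 row 3 rows before it 142.9, 44.1 and 41.7 RPKM. Near the 142.9 RPKM of replicate 1 stood 137 RPKM in replicate 3 at the Mir1934 row. Another level row, Tnfsf13, 5 rows after Chd3, held 181.5, 181.0 and 183.0 RPKM, the highest value of that window in each library. A level row shows only that the libraries held about equal values at it. It does not show that they are in step around it, or that the values belong to the named gene.

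Counted over the members, each value was looked up in both other libraries, 42 look-ups in all, of which 21 found a like value within 5 rows. Of the look-ups over the whole table, 54.1% did. A like value 1 to 5 rows away was found in 12 of the 42 (38.7% in the table), and for values of 10 RPKM or more, a like value within 5 rows in 16 of 26 (62.7% in the table, and 21.7% for 11 rows centred 50 rows away). By member the numbers out of 6 were 4 for Chd2, Chd3, Chd4 and Chd7, 2 for Chd5 and Chd8 and 1 for Chd1. The highest value within 5 rows lay within 1.5-fold between libraries for 6 of the 7 members, all but Chd1, and at 65.2% of the rows of the table where it reached 1 RPKM in every library. The highest value within 10 rows did so for 5 of the 7 members, all but Chd4 and Chd5, and no share over all rows is given for that window.

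Means over neighbouring rows are given as the level of each member's surroundings. Averaging by itself makes them vary less than single rows, and how much of their smaller spread it accounts for was not tested. The mean log2(RPKM + 1) of the 11 rows was 3.43 ± 0.08 around Chd3, 3.30 ± 0.04 around Chd4 and 3.18 ± 0.09 around Chd5 (SD, n = 3). It was 2.71 ± 0.13 around Chd8 and 2.42 ± 0.15 around Chd2, and lowest at 1.53 ± 0.08 around Chd7 and 1.37 ± 0.34 around Chd1. The median of the 7 was 2.71, against 1.97 over windows of all rows, and 5 members lay above that median. The window means of Chd3, Chd4 and Chd5 lay above those of Chd7 and Chd1 in every library.

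The share of values in step around the CHD rows lay near that of the whole table. Of values of 5 RPKM or more within 25 rows of a member, 14.1%, 16.8% and 41.2% had a like value at the same row for replicates 1 and 2, 1 and 3, and 2 and 3. Over the whole table the shares were 17.0%, 16.8% and 41.4%. A like value within 10 rows was found for 60.8%, 60.7% and 88.7% of them, against 64.3%, 62.95% and 88.5% in the table. Among members, the share at the same row for replicates 2 and 3 ran from 28.6% around Chd4 to 50% around Chd3.

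**Figure D3:**
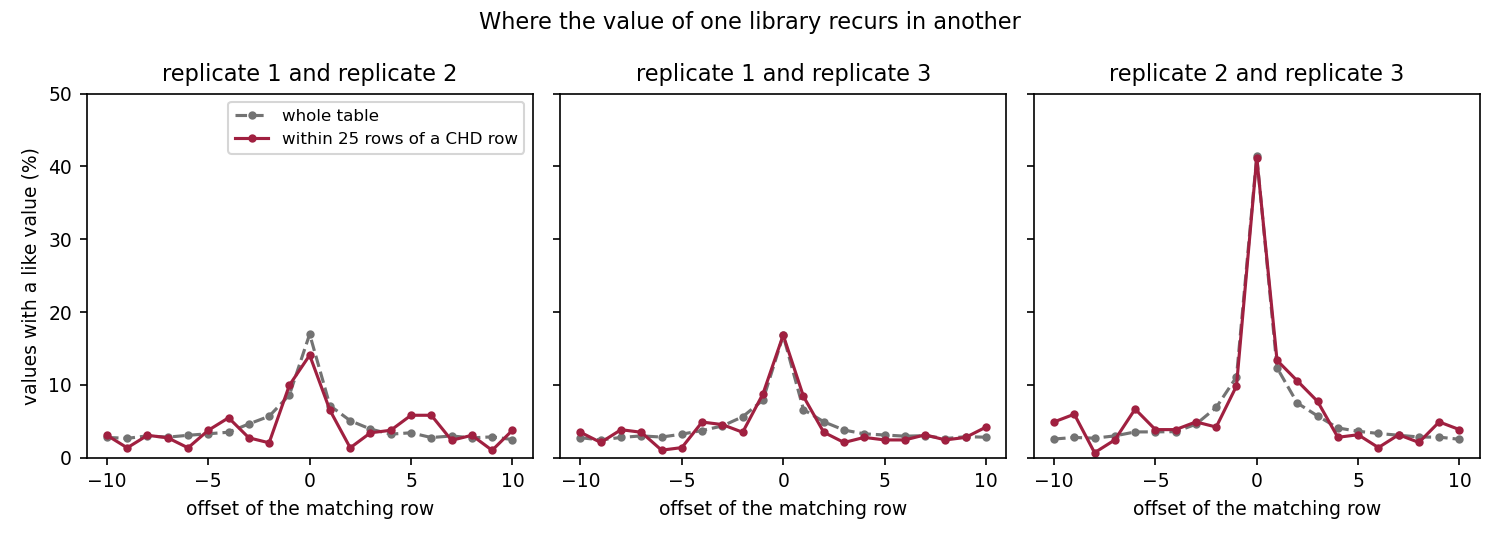
Percent of values of 5 RPKM or more in one library that have a like value (natural-log difference up to 0.1) in another, by the offset in rows at which it stands, with 1 panel per pair of libraries. Far from the row, at offsets of 26 to 100, the share was 2.41% to 2.46% (not drawn). The line for rows within 25 of a CHD row peaks at offset 0 at 14.1%, 16.8% and 41.2%, beside 17.0%, 16.8% and 41.4% for the whole table (dashed).

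Few rows of the table stood at their place in genomic order, and the CHD rows were mostly late. Ranked among the rows of the same chromosome by locus start, 31.7% of all rows lay within 5 rows of that place and 53.5% were more than 5 rows early, with a median of -6 rows. Of the 7 CHD rows, 6 stood more than 5 rows late, where 14.8% of all rows did. The lag was 54 rows for Chd1, 34 for Chd5, 19 for Chd2, 17 for Chd7, 13 for Chd3 and 6 for Chd8, and Chd4 stood 4 rows early. Chd6 and Chd9 lagged by 13 and 21 rows. The rows within 5 of the Chd1 row lay a median of 5.64 Mb from it, those of Chd2 5.69 Mb, and those of Chd4 0.0977 Mb. The genes that flank Chd1 in the genome, 4933401D09Rik and Rgmb, stood 63 and 60 rows before it.

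Over the whole table locus length moved with this lag, and its part in it was not tested. The CHD loci had a median length of 51.5 kb, against 14.0 kb over all rows, and 5 of the 7 fell in the top quartile of length. In that quartile 29.0% of rows stood more than 5 rows late, as did those 5 members, and in the bottom quartile 8.06% did. Within the set the 3 shortest loci had the smallest displacements. Chd3, Chd4 and Chd8, at 26.2, 34.3 and 39.4 kb, were displaced by 13, 4 and 6 rows. Among the longer loci, Chd7 at 178 kb and Chd2 at 115 kb lagged less than Chd1 at 67.6 kb and Chd5 at 51.5 kb. A window of 5 rows around the Chd1, Chd2, Chd3, Chd5 or Chd7 row thus holds neither of the nearest non-overlapping genes on the chromosome.

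**Figure D4:**
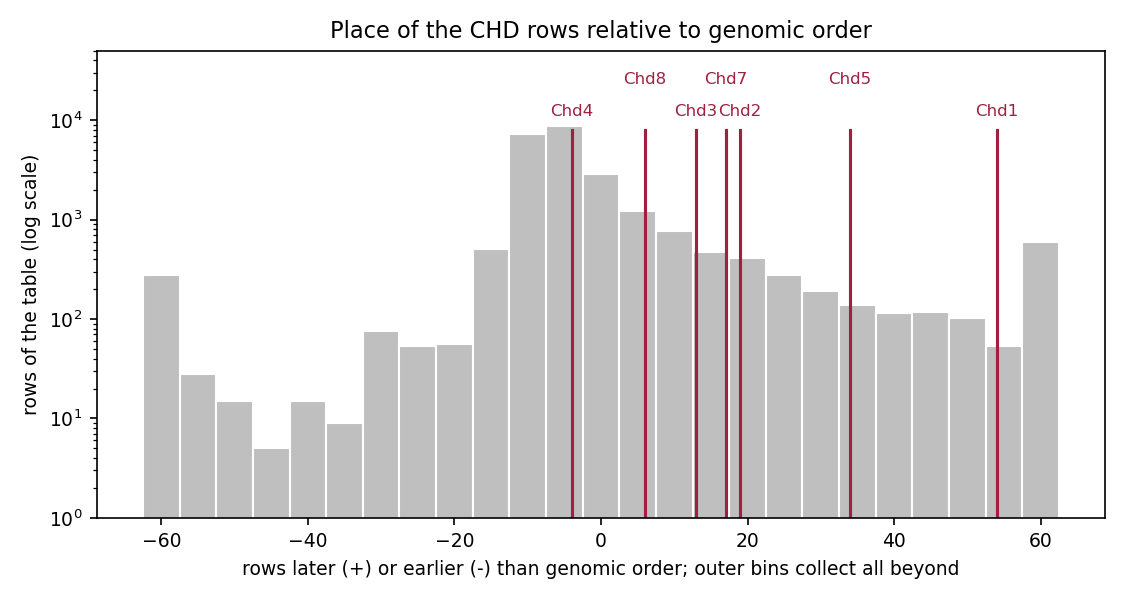
Number of rows (log scale) by how many rows later or earlier they stand than genomic order on their chromosome, with the 7 CHD rows as red lines. Chd4 lies 4 rows early, and the other 6 lie 6 to 54 rows late, to the right of most rows.

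The partners of CHD proteins and related remodellers were read from 54 rows, of which 22 lay above 1 RPKM by limma, beside 18.9% of all symbols. Their median level was 3.01 on the log2(RPKM + 1) scale, against 1.64 over all symbols. NuRD subunits, the partners of Chd3, Chd4 and Chd5, had 8 of 12 rows above the level and a median of 4.17. Among them the deacetylase rows Hdac1 and Hdac2 held 76.1, 59.0 and 60.01 RPKM and 109.1, 61.8 and 62.7 RPKM. The row of the p66 subunit Gatad2a held 49.0, 43.3 and 41.4 RPKM and was the most level of the high NuRD rows. The methyl-CpG-binding Mbd3 row, at 3.98, 49.0 and 174.8 RPKM, and the Cdk2ap1 row, at 45.6, 3.07 and 41.2 RPKM, did not pass.

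Of the ISWI remodellers and their subunits, 5 of 11 rows lay above 1 RPKM by limma, among them the motor gene Smarca5. The Baz2a row held 0.0273, 0.0408 and 145.8 RPKM and did not pass. Elongation factors had 3 of 6, and H3K4 methylation genes and partners of Chd7 and Chd8 had 3 of 6. In the last group the Wdr5 row, for a core subunit of the H3K4 methyltransferases, held 266, 390 and 361 RPKM, the highest mean of the list. The row of the Chd8-bound Wnt effector Ctnnb1 held 55.2, 205 and 13.1 RPKM, and that of the insulator protein Ctcf 18.4, 0 and 25.04 RPKM. Rows of INO80-type remodellers had 1 of 7 above the level, the helicase row Ruvbl2 at 15.2, 95.2 and 88.5 RPKM, while Yy1 held 60.3, 7.34 and 5.65 RPKM. Rows of the ChAHP complex, in which Chd4 meets Adnp and HP1 proteins, had 1 of 4, and the other CHD and Snf2-type rows had 1 of 8, Chd9. The Hells and Cbx3 rows were listed at 0 in every library.

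**Figure D5:**
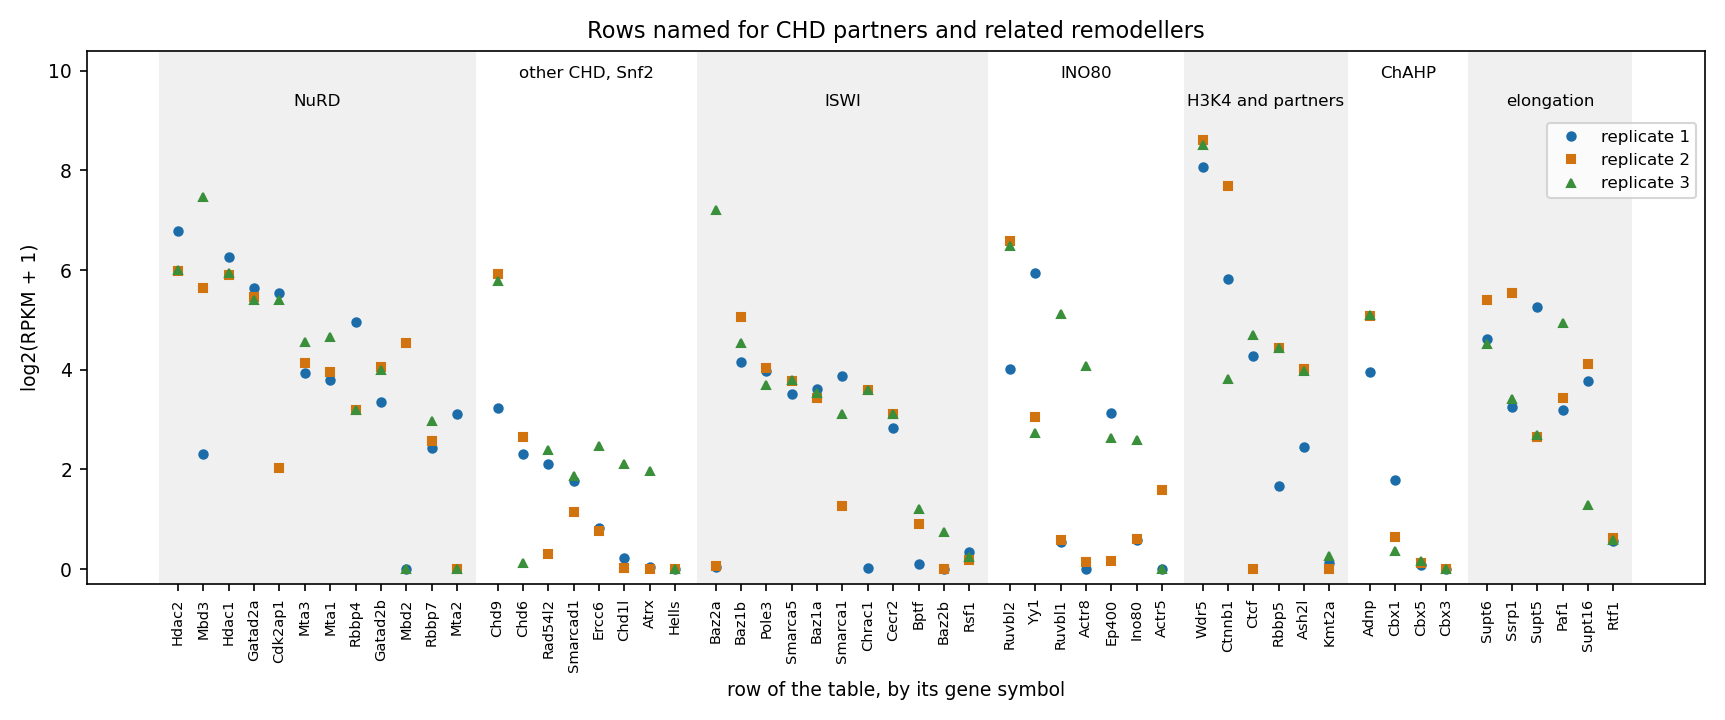
Levels as log2(RPKM + 1) at 54 rows named for CHD partners and related remodellers, grouped by complex and ordered by mean within a group, with 1 point per E24 library. Rows with points together, such as Gatad2a and Smarca5, stand beside rows such as Baz2a, where replicate 3 alone held 145.8 RPKM.

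Level and uneven rows stood side by side in this list too. In 22 of the 54 the highest library was over 10 times the lowest, as at Chd4, Chd5 and Chd7 and in 46.4% of all symbols. In 8 the libraries lay within 1.5-fold, as at Chd1, Chd3 and Chd8 and in 15.1% of all symbols. Of those 8, 7 were above 1 RPKM by limma, but that test uses the same spread, so this is not a separate result. With replicate 2 or replicate 3 left out, 13 and 11 of the 54 rows lay above 1 RPKM, and 11 did at a level of 5 RPKM.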

How the data were processed

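RNA was sequenced from the dentate gyrus of 3 mice of 1 group. The authors deposited RPKM values, for which the submitters' processing notes name TopHat2, Cufflinks and mm9. No source used here gives versions, annotation or filters. The table's 9 other value columns belong to no listed sample and were not used. Without a known depth, no counting interval is given.

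Rows sharing a symbol were summed and log2(RPKM + 1) was tested against 1 RPKM by limma 3.58.1 under R 4.3.3. The fit was intercept only with a variance trend, one-sided, with Benjamini-Hochberg over all symbols. It was checked on simulated data without displaced values. Their SD was smaller than the median of 1.38 at rows with a mean of 1 RPKM or more. That check does not show how the test performs at the spread of these data. Row matching, windows and genomic order were computed in Python 3.11.15, and the comparisons with genomic order and with distant rows were added after seeing the data. Of 55 listed partner genes, 54 were in the table, 2 of them under another name in RefSeq (GRCm38.p6), which was used for names only. The members and lists were chosen with earlier results of these data known. Named partner rows are among the 10 highest means, those listed at 0 and up to 6 over 10-fold apart, and others were chosen after their values were seen. Alternatives changed the pseudocount, level, filter, scaling, tolerance, window and libraries.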

Additional observations from a re-analysis of the deposited data

How the results depend on the processing

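The main results were recomputed under 46 alternatives, of which 32 left them within 1.5-fold (counts and SDs) or 1 SD (other values) and 14 did not. The window of 25 rows was chosen after seeing the data. The number of members above 1 RPKM (3) was 2 to 4 with a library left out. For the partner list (22) it was 11 at 5 RPKM, and 11 to 22 when each library in turn was dropped. Members alike in every pair (0) numbered 2 at a tolerance of 0.2 and 0 to 4 when only 2 libraries were compared. Look-ups that found a like value within 5 rows (50%) were 83.3% at a tolerance of 0.2 and 35.7% to 71.4% when 1 library was dropped. The median SD of the 7 rows (1.04) was 0.042 without replicate 1, 0.16 without replicate 2 and 1.23 without replicate 3. The median window mean (2.71) was 1.75 with a pseudocount of 0.1, and 3.48, 2.25 and 2.24 with 2, 10 and 25 rows on either side, and 2.66 to 2.79 when 1 library was dropped. The difference of the Chd5 row from the level reversed to -0.50 at 5 RPKM and, with a library left out, ran from -0.11 (without replicate 2) to 1.70, and that of the Chd7 row to -0.39 at 5 RPKM. Where a setting neither redefines the count nor drops a library, the cause was not tested. No paired analysis was possible because all libraries belong to 1 group. With depth unknown, its limits cannot be given.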

Other observations

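The row of Chd3os, a locus next to Chd3 in the genome, stood 21 rows before the Chd3 row and held 5.71, 34.5 and 37.0 RPKM, with replicate 1 the low library. Of the rows named for other cell types, limma placed 4 of 5 microglial, 2 of 5 interneuron, 2 of 5 CA pyramidal, 1 of 5 oligodendrocyte, 1 of 4 endothelial and 0 of 5 astrocyte rows above 1 RPKM, and 1 of 7 granule neuron rows, where 18.9% of all symbols were.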
